A study of Mus musculus with 7 samples.

Results

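Homologous recombination and mismatch repair were followed here through 7 genes measured in lineage depleted (lin-) bone marrow cells of *HRP-2* wild type and knockout mice. They were *Rbbp8*, *Brca1*, *Brca2*, *Rad50* and *Nbn* for recombination and *Msh3* and *Pms2* for mismatch repair. All 7 are among the 25033 gene symbols in the count tables, and all 7 passed the filter on low counts, which left 11265 genes for testing. The first 5 and *Pms2* were chosen for what their proteins do, since HRP-2 and its paralog LEDGF/p75 bind the product of *Rbbp8*. *Msh3* was selected on its level in these same mice, which was raised in the knockout cells, so its difference is given as a description, with no test.

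Libraries came from 3 wild type (*Hrp2*+/+) and 4 knockout (*Hrp2*-/-) mice, each library from 1 animal. The knockout strain is C57BL/6N-Hdgfrp2<tm1b (KOMP)Wtsi>/Tcp. The knockout is systemic, so every tissue of the donor animals carried it and the marrow cells are not the only ones affected. The labels name no treatment. The methods give an age of 6 to 8 weeks for the mice from which lin- cells were isolated, and their sex is not given in the sources used here. The libraries read 1 fragment near the 3′ end of each polyadenylated transcript, so a level in CPM, reads scaled to the library size and here to edgeR's TMM factors, counts transcripts and is not divided by gene length.

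Breaks through both DNA strands are repaired without loss of sequence by homologous recombination. The MRE11-RAD50-NBN complex binds the break, CtIP, the protein of *Rbbp8*, starts the trimming of its ends, and BRCA1 and BRCA2 act in the steps that lead to strand exchange. Mismatch repair corrects copying errors: complexes with MSH6 mainly recognize single mismatches, those with MSH3 larger loops, and a complex with PMS2 then nicks the new strand. Both pathways are most used in dividing cells, which many marrow progenitors are.

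The libraries held between 3525665 and 5605158 reads on genes, and 3 reads, taken as the floor for counting error only, corresponded to between 0.561 and 0.840 CPM. The ribosomal precursor *Rn45s* took from 4.94% to 20.6% of those reads. *Hdgfl2*, which encodes HRP-2, lay between 43.7 and 50.02 CPM in wild type mice and between 0.498 and 2.53 CPM in knockout mice. *Xist* stood at 0.561 CPM in knockout replicate 3 and between 229.0 and 302.8 CPM in the other 6 mice. Values without that mouse are therefore given for *Msh3*, *Rnf8*, *Rad51c* and *Lig1*, where the genotypes did not overlap. For the other genes without overlap no single value without it is given. Of 10 progenitor markers 9 passed the filter, 7 of them with a fitted log2 fold change below 0 (median −0.15) and none at an unadjusted p under 0.05 in edgeR. The hemoglobin genes *Hbb-bs*, *Hbb-bt*, *Hba-a1* and *Hba-a2* had no reads in any library. The summed level of 10 mature neutrophil genes was 7872, 8589 and 10975 CPM in the 3 wild type mice, and 15638, 8974, 24777 and 11627 CPM in knockout replicates 1, 2, 3 and 4. All 10 had a fitted log2 fold change above 0 (0.31 to 0.94), none at an unadjusted p under 0.05 in edgeR. In bulk RNA, fewer cells of a type and less RNA per cell cannot be told apart.

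*Msh3*, the mismatch repair gene of the MutSβ complex, was the member whose level differed between the genotypes without overlap. The 3 wild type mice, in the order of their replicate numbers here and below, stood at 19.96, 20.7 and 15.1 CPM. The 4 knockout mice stood at 29.2, 29.7, 31.8 and 30.9 CPM. Every knockout mouse lay above every wild type mouse, and the knockout mice lay closer to one another than the wild type mice did. The mean was 18.6 ± 3.02 CPM for wild type (SD, n = 3) and 30.4 ± 1.17 CPM for knockout (SD, n = 4). The edgeR fit gave 0.71 ± 0.21 on the log2 scale (standard error), or 1.63-fold. Over all genes tested, 2.37% had every knockout mouse above every wild type mouse and 2.79% every knockout mouse below. Those shares are given for comparison only, because *Msh3* entered the list for this difference. The log2 fold change was 0.68 without knockout replicate 3 and 0.58 without wild type replicate 3, the mouse with the lowest level. The neutrophil gene sum lay within the wild type range in knockout replicate 2 and above it in knockout replicates 1, 3 and 4. The part of neutrophil or progenitor RNA in the *Msh3* level was not tested.

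**Figure D1:**
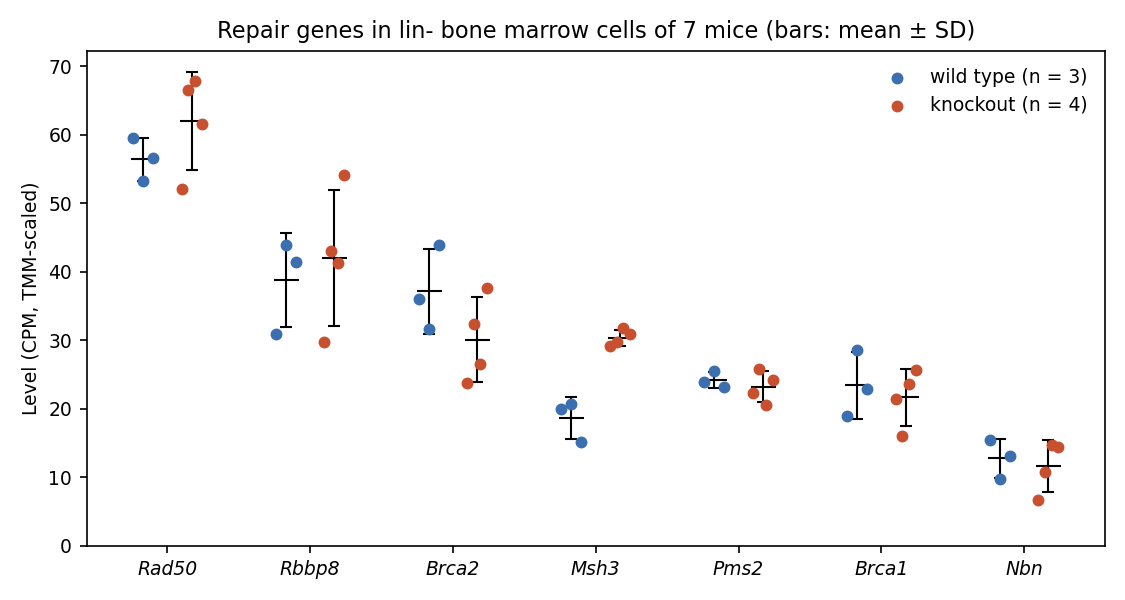
Level of the 7 repair genes in CPM (vertical axis, from 0) in each of 3 wild type (blue) and 4 knockout (orange) mice, with black bars for the mean ± SD. For *Msh3* the knockout mice (29.2 to 31.8 CPM) all lie above the wild type mice (15.1 to 20.7 CPM), while the genotypes overlap for the other 6 genes.

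*Msh3* is transcribed from the minus strand of chromosome 13 of GRCm38, from 92211872 to 92355003. *Msh6*, whose protein recognizes mismatches in the other MutS complex, was at 53.1, 60.8 and 65.9 CPM in wild type and at 59.1, 53.8, 69.3 and 60.5 CPM in knockout mice. The genotypes overlapped (log2 fold change 0.020, 95% interval −0.32 to 0.36, edgeR adjusted p = 0.999), and omitting single mice gave values from −0.054 to 0.095, so its sign is not fixed. Per mouse, the ratio of *Msh3* to *Msh6* reads averaged 0.316 ± 0.0763 for wild type (SD, n = 3) and 0.504 ± 0.0390 for knockout animals (SD, n = 4). *Msh6* was thus the more abundant transcript of the pair in each of the 7 mice.

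**Figure D2:**
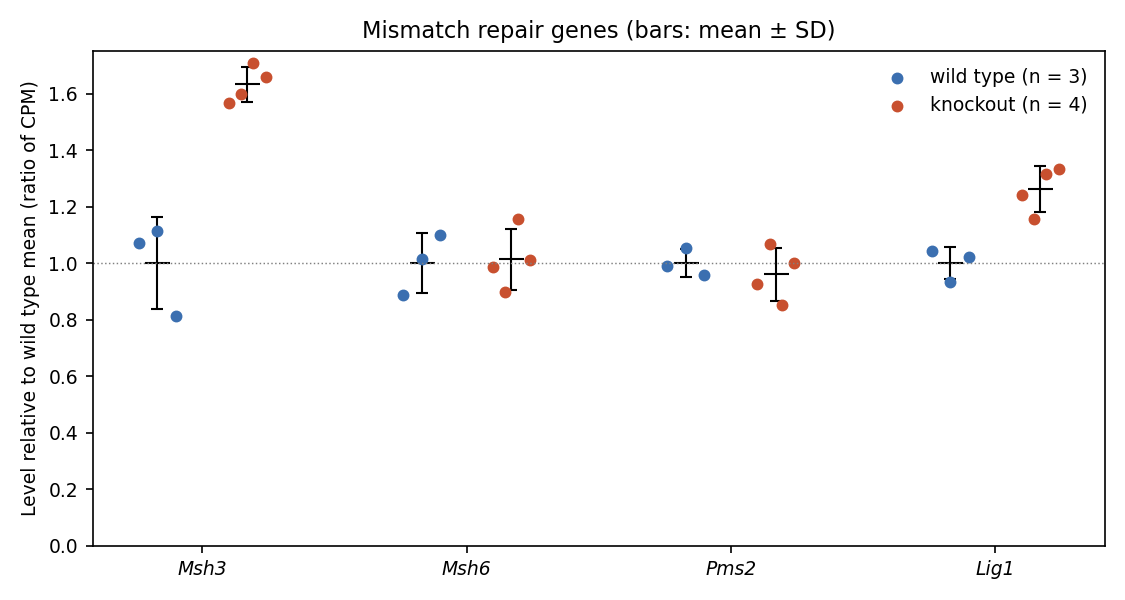
Level of 4 mismatch repair genes in each mouse divided by the mean of the 3 wild type mice (vertical axis, a ratio of CPM values from 0), with black bars for the mean ± SD in wild type (blue) and knockout (orange) mice. *Msh3* and *Lig1* are the genes whose knockout mice all lie above the wild type mice, while *Msh6* and *Pms2* scatter around 1.

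*Pms2*, the endonuclease subunit that acts after recognition, had the lowest coefficient of variation among the members. It was read at 23.9, 25.5 and 23.1 CPM in wild type and at 22.3, 25.8, 20.6 and 24.2 CPM in knockout mice, with overlap. The log2 fold change was −0.059 (95% interval −0.49 to 0.37, edgeR adjusted p = 0.999), and it was −0.0046 without knockout replicate 3 and −0.11 without knockout replicate 2. Within genotypes that coefficient was 8.07%, below the 9.77% that counting error alone gives at its depth. The 3′ end of *Pms2* overlaps *Rsph10b* and *Gm42421* on the same strand, so some reads may belong to either.

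*Pms2* lies on the plus strand of chromosome 5 from 143909964 to 143933968 and starts 117 bases from *Aimp2*, a subunit of the tRNA synthetase complex, on the other strand. *Aimp2* had a log2 fold change of −0.0056 (95% interval −0.47 to 0.46, edgeR adjusted p = 0.999). The gap between both starts is shown because it is the region between the annotated 5′ ends of this pair. It is chr5:143909848-143909963 of GRCm38.p6, plus strand. Capitals mark CCAAT, present 2 times, and GGGCGG, present 2 times, on either strand. CCAAT was found in 33.8% and GGGCGG in 32.7% of the 250-base promoters.
Pms2 and Aimp2 gap: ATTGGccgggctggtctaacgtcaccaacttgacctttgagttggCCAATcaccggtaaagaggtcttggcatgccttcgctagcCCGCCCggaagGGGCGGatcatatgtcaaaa

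The break-end genes come next. *Rad50*, the coiled-coil ATPase of the MRE11-RAD50-NBN complex, lies on the minus strand of chromosome 11 from 53649519 to 53707319 and was the most abundant member. Its level was 59.5, 53.2 and 56.6 CPM in wild type and 52.1, 66.5, 67.8 and 61.5 CPM in knockout mice. The lowest and the highest mouse were both knockout animals. The log2 fold change was 0.14 (95% interval −0.20 to 0.47, edgeR adjusted p = 0.999), which in linear terms allows from 0.871-fold to 1.38-fold.

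*Nbn*, the subunit that brings the ATM kinase to the complex, lies on the plus strand of chromosome 4 from 15957925 to 15992589 and was the least abundant member. It was at 15.4, 9.80 and 13.0 CPM in wild type and at 6.61, 10.8, 14.8 and 14.5 CPM in knockout mice, and the genotypes overlapped over most of their range, with knockout replicate 1 lowest. It had 34 to 79 reads per library and varied within genotypes by 28.4%, against 13.6% from counting error. Its interval was the widest of the members, from −0.80 to 0.53 around a log2 fold change of −0.14 (edgeR adjusted p = 0.999). Its sign turned without wild type replicate 1 (0.033) and without knockout replicate 1 (0.064). *Mre11a*, the nuclease of the complex, was at 29.5 ± 3.92 CPM (SD, n = 3) and 28.5 ± 3.46 CPM (SD, n = 4), with a log2 fold change of −0.050 (95% interval −0.47 to 0.37). The transcripts of this complex were therefore at unlike levels within a mouse, *Rad50* exceeding *Nbn* by 3.87 to 7.88 times, and for none of the 3 did the genotypes differ beyond the spread between mice.

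*Rbbp8*, which encodes CtIP and lies on chromosome 18, was read at 30.9, 44.0 and 41.4 CPM in wild type mice. In knockout mice it was at 29.7, 43.0, 41.3 and 54.1 CPM. The wild type range lay within that of the knockout mice, whose replicate 1 was the lowest and replicate 4 the highest of all. The log2 fold change was 0.12 (standard error 0.21, 95% interval −0.33 to 0.56, edgeR adjusted p = 0.999), or from 0.797-fold to 1.47-fold. With the replicate number as a block it was −0.031, and it was −0.026 without knockout replicate 4 and −0.0195 without wild type replicate 1. *Rbbp8* varied within genotypes by 21.8%, against 7.48% from counting error. A fit that took the *Rn45s* share into account gave 0.19 on the log2 scale.

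*Brca1* and *Brca2*, the tumor suppressor genes that link resection to strand exchange, were each lower on average in knockout mice, but within the spread. *Brca2*, on the plus strand of chromosome 5 from 150522630 to 150570329, was at 36.0, 31.6 and 43.8 CPM in wild type and at 23.7, 32.4, 26.5 and 37.6 CPM in knockout mice. The lowest mice were knockout replicates 1 and 3, and knockout replicate 4 lay above wild type replicates 1 and 2. Its log2 fold change of −0.31 (95% interval −0.74 to 0.13, edgeR adjusted p = 0.999) was the second in size among the members and did not pass the test. It was −0.17 without wild type replicate 3. Knockout replicates 1 and 3 were also the mice with the highest neutrophil gene sums, 15638 and 24777 CPM, whose part in the *Brca2* level was not tested.

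*Brca1*, on the minus strand of chromosome 11 from 101488764 to 101551955, was at 18.9, 28.6 and 22.9 CPM in wild type and at 21.4, 16.0, 23.5 and 25.7 CPM in knockout mice. The highest mouse was wild type and the lowest knockout, and the rest were mixed. The log2 fold change was −0.11 (95% interval −0.60 to 0.38, edgeR adjusted p = 0.999), and it turned to 0.055 without wild type replicate 2 and to 0.0087 without knockout replicate 2. *Nbr1*, an autophagy receptor gene that starts 194 bases away on the other strand, was at 49.1 ± 5.72 CPM (SD, n = 3) and 44.7 ± 6.39 CPM (SD, n = 4), with a log2 fold change of −0.14 (95% interval −0.51 to 0.23), between −0.043 without wild type replicate 3 and −0.21 without knockout replicate 2. The gap between their starts, chr11:101551956-101552148 of GRCm38.p6, is shown on the minus strand for comparison with that of *Pms2*. Its capitals mark CCAAT, found 1 time, while GGGCGG was not found in it on either strand.
Brca1 and Nbr1 gap: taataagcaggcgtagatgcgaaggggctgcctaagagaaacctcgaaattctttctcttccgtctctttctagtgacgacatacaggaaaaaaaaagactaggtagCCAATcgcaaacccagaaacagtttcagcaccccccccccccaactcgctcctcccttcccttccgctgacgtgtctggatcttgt

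Promoter sequences from the RefSeq table were read for *Brca1*, *Brca2* and *Pms2*. *Rbbp8*, *Rad50* and *Nbn* were not matched in it. The promoter of *Msh3* is not reported here. None of the motifs searched was shared by the 3 promoters read: GGGCGG was found for *Pms2*, CCAAT for *Pms2* and *Brca1*, and TATAAA for *Brca2*. A match describes letters in a window and not a bound site.

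Of the 6 members other than *Msh3*, none had an adjusted p under 0.25, the threshold of the study, in edgeR's quasi-likelihood test. Over all genes 2 were under it, 0.0178% of those tested (0.00888% higher and 0.00888% lower). DESeq2 also called none of these 6, and 21 genes over all. The study, which used DESeq2, reported more genes at this threshold than either tool gave here. None of them had an unadjusted p under 0.05 in either tool, where 3.63% of all genes did in edgeR. With *Msh3* included, the fitted log2 fold changes ran from −0.31 to 0.71, with 3 above and 4 below 0 and a median of −0.059, beside a median of −0.0014 over all genes, of which 49.8% lay above and 50.2% below 0. The paralog gene *Psip1*, which encodes LEDGF/p75, had a log2 fold change of 0.059 (95% interval −0.26 to 0.37), which was 2.5e-05 without wild type replicate 1 and 0.15 without knockout replicate 1.

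**Figure D3:**
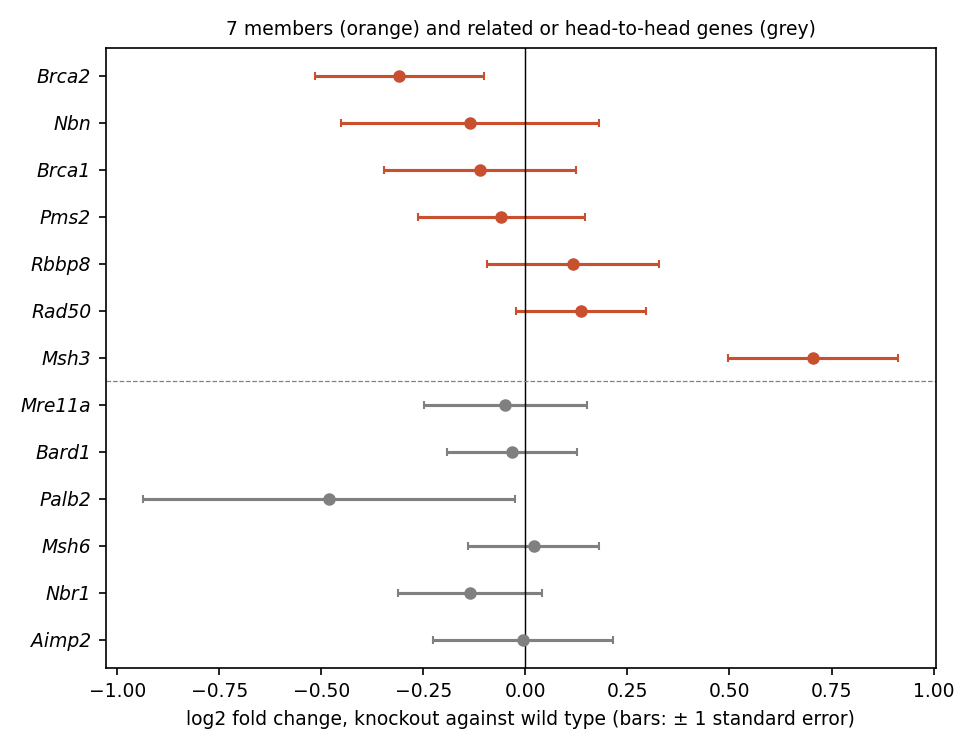
Fitted log2 fold change, knockout against wild type (horizontal axis, bars ± 1 standard error), for the 7 members (orange) and for related repair genes or those starting within 1000 bases on the other strand (grey). *Msh3* stands at 0.71 and the other 6 members lie between −0.31 and 0.14.

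In order of their mean over the 7 mice, the levels were 59.6 CPM for *Rad50*, 40.6 for *Rbbp8*, 33.1 for *Brca2*, 25.3 for *Msh3*, 23.6 for *Pms2*, 22.4 for *Brca1* and 12.1 for *Nbn*. The ends of this order were stable from mouse to mouse, *Rad50* exceeding *Rbbp8* and *Brca1* exceeding *Nbn* in 7 of 7 mice. The middle was not. *Rbbp8* exceeded *Brca2* in 5 of 7 mice, as *Brca2* did *Msh3*, and *Pms2* exceeded *Brca1* in 4. *Msh3* lay below *Pms2* in each of the 3 wild type mice and above it in each of the 4 knockout mice, which follows from the difference by which *Msh3* was chosen. Over the 7 mice the Pearson correlation of log2 levels between members ran from −0.65 to 0.64 among 21 pairs, 13 of them above 0, with a median of 0.060. The points share libraries, and the values are a description.

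The genes most like *Rbbp8* over the 7 mice, among 8256 tested genes with a mean count of at least 50, were *Golga3*, *Mrps18a* and *Stoml2*, each with a Pearson correlation of 0.97 in log2(CPM + 1). For *Msh3* they were *Atp2b1* (0.96), *Sf3b2* (0.95) and *Tnf* (0.95). Since *Msh3* was selected on its difference between the genotypes, its ranking favours genes with the same difference and is no independent result. With 7 mice and 8256 genes, correlations of this size are reached by the best of many, and they are given as a description.

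The rest of the recombination pathway was taken from lists by role, which hold the 5 members too. Of 62 genes 61 were tested, and *Atrip*, with no reads in any library, was not. Of the 61, 27 lay above and 34 below 0, with a median log2 fold change of −0.032. None had an adjusted p under 0.25 in edgeR or in DESeq2. At an unadjusted p under 0.05 there was 1 higher, 1.64% of them against 1.56% of all genes, and 1 lower, 1.64% against 2.07% of all genes. These shares are near those of all genes.

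Among the genes of end processing and break signalling the higher gene was *Rnf8*, a ubiquitin ligase that marks chromatin beside breaks. It was at 84.7, 81.8 and 79.4 CPM in wild type and at 120.3, 89.1, 112.1 and 94.9 CPM in knockout mice, without overlap (log2 fold change 0.35, standard error 0.15, edgeR adjusted p = 0.999). Among the strand exchange genes the lower one was *Rad51c*, which acts in strand exchange. It was at 8.78, 10.9 and 10.4 CPM in wild type and at 7.38, 2.29, 7.29 and 3.49 CPM in knockout mice, also without overlap (log2 fold change −0.95, standard error 0.41, edgeR adjusted p = 0.999). Without knockout replicate 3 the log2 fold change was 0.31 for *Rnf8* and −1.17 for *Rad51c*. Neither gene passed the test over all genes.

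Among partners of the BRCA proteins, *Bard1* differed by less than the spread between mice and *Palb2* varied widely within genotypes. *Bard1*, the partner of BRCA1 in its ubiquitin ligase, was at 57.3 ± 6.37 CPM (SD, n = 3) and 56.0 ± 3.91 CPM (SD, n = 4). *Palb2*, which bridges BRCA1 and BRCA2, had 7.08 ± 3.12 CPM (SD, n = 3) and 5.01 ± 2.23 CPM (SD, n = 4), and its interval ran from −1.44 to 0.47. Within genotypes *Palb2* varied by 44.5%, against 19.8% from counting error, and its fitted change was −0.24 without wild type replicate 2 and −0.81 without wild type replicate 1. Of the 9 resolution genes, which cut or unwind the joined molecules, the lowest were *Slx1b* (log2 fold change −0.42) and *Top3a* (−0.23) and the highest *Eme2* (0.28) and *Mus81* (0.16). Of these, *Slx1b* moved least when single mice were omitted (−0.53 to −0.31). *Top3a* was −0.099 without knockout replicate 2 and −0.38 without knockout replicate 4. *Mus81* was 0.038 without wild type replicate 1 and 0.45 without wild type replicate 2, and *Eme2* was −0.080 without wild type replicate 2 and 0.52 without wild type replicate 3. None of the 9 had groups without overlap.

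Of the 23 mismatch repair genes, *Msh3* and *Pms2* included, 22 were tested, all but *Pold4*. Of these 14 lay above and 8 below 0, with a median log2 fold change of 0.035, or 0.024 over the 21 genes other than *Msh3*. The median of the 22 was 0.096 without knockout replicate 1 and 0.085 without wild type replicate 3. None of the 21 was called in edgeR or DESeq2. At an unadjusted p under 0.05 in edgeR there was 1 higher, *Lig1*, which is 4.76% of the 21 against 1.56% of all genes, and none lower. DESeq2 also had 1 of the 21 at that level. *Lig1* encodes the DNA ligase that seals the repaired strand and also joins replication fragments. It was at 555.0, 497.0 and 543.4 CPM in wild type and at 659.8, 614.3, 700.1 and 709.3 CPM in knockout mice, and each knockout mouse lay above each wild type mouse. Its log2 fold change was 0.34 (standard error 0.12, edgeR adjusted p = 0.999), which did not pass the test over all genes. Without knockout replicate 3 it was 0.31.

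**Figure D4:**
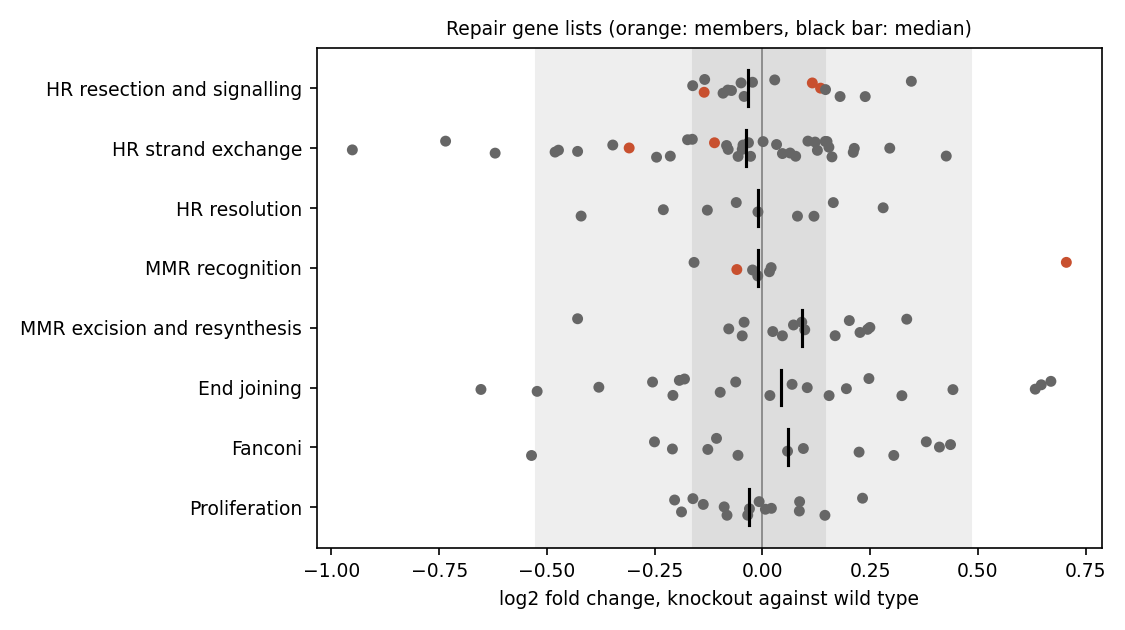
Fitted log2 fold change of each tested gene (horizontal axis) in 8 lists of repair and proliferation genes, with members in orange and a black bar at each list's median. Shaded bands hold the middle 50% and 90% of all 11265 genes, the wider one from −0.53 to 0.48, and *Msh3* lies outside it to the right of the other recognition genes.

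For 15 proliferation genes the log2 fold changes lay between −0.20 and 0.23, with a median of −0.030 and none at an unadjusted p under 0.05 in edgeR's test. Their summed level was 3539 ± 134.5 CPM in the wild type mice (SD, n = 3) against 3532 ± 115.6 CPM in the knockout mice (SD, n = 4), with overlap. *Mcm3*, a helicase subunit, was the one without overlap, at 0.086, and was singled out after its value was seen. The part of proliferation in the levels of the repair genes was not tested.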

How the data were processed

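RNA of lin- bone marrow cells from 3 wild type and 4 knockout mice had been made into 3′ end libraries and read as single reads. The authors used STAR for alignment to GRCm38 and an Ensembl annotation for the counts. The deposited counts are whole reads per gene symbol, not normalized. Each file ends in 5 tally rows in the layout of a counting program, which were left out, and between 27.0% and 31.6% of reads fell on no gene. The strand counted is not given in the sources used here, so antisense overlaps are uncertain. Total counts limit the precision of low genes. Genes were filtered by filterByExpr, scaled by TMM and tested with the robust quasi-likelihood test of edgeR 4.0.16 (R 4.3.3), with Benjamini-Hochberg adjustment over all genes. DESeq2, the tool of the authors, was an alternative and was run here in version 1.42.0. Standard errors are the fold change over the square root of F, and 95% intervals follow from them. The fits were tested on simulated data. The members and lists were chosen with earlier results of these data known and the lists were written by hand. Genes named are the members, *Hdgfl2*, *Psip1*, direct complex partners, genes that start within 1000 bases on the other strand, and in each repair list those at an unadjusted p under 0.05, otherwise the 2 highest and 2 lowest. Some genes that this rule names are not reported here. *Abraxas1*, *Dclre1c* and *Mcm3* were chosen after their values were seen. Coordinates and neighbours are from GENCODE M21 on GRCm38. p-values measure the spread between these mice. Replicates of a genotype differed by more than sampling noise. Same-numbered mice are different animals, and the correlation of their deviations ran from −0.21 to −0.025, so the numbers were not used as pairs.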

Additional observations from a re-analysis of the deposited data

How the results depend on the processing

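None of the 6 members other than *Msh3* was called at an adjusted p under 0.25 under any of the 14 alternatives, which were DESeq2, RLE size factors, no filter or a stricter one, the replicate block, *Rn45s* left out or its share as a covariate, and the omission of each mouse. The log2 fold change of *Msh3* ran from 0.58 to 0.79 over them, that of *Brca2* from −0.43 to −0.17 and that of *Rad50* from 0.088 to 0.21. The number of genes called was 2, against 21 with DESeq2, 41 without a filter on low counts, 1 with at least 10 counts in every mouse, 1 with the replicate block and 8 with the *Rn45s* covariate. Over the omission of each mouse it ran from 2 to 7, being 7 without wild type replicate 1 and 4 without knockout replicate 1. *Hdgfl2*, called in the main fit, had 2 to 13 reads per knockout library. It was therefore left out where at least 10 counts in every mouse were required. What else moved these numbers was not tested. The median of the recombination genes ran from −0.044 to 0.063 over the same omissions, the highest being without wild type replicate 3, that of the mismatch repair genes from 0.024 to 0.096, and that of the members from −0.090 to 0.064. Signs of values near 0 turned. With the replicate block *Rbbp8* had −0.031, and *Aimp2* had 0.0028 with DESeq2 and 0.0022 with RLE factors. Over the omission of each mouse the ranges were −0.026 to 0.25 for *Rbbp8*, −0.24 to 0.055 for *Brca1*, −0.29 to 0.064 for *Nbn*, −0.15 to 0.029 for *Mre11a*, −0.080 to 0.063 for *Bard1*, −0.054 to 0.095 for *Msh6*, −0.19 to 0.11 for *Aimp2* and −0.080 to 0.52 for *Eme2*. Same-numbered mice are different animals and the block changed no call of a member.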

Other observations

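End joining, which reseals breaks without a template, and the Fanconi pathway, which opens crosslinks for recombination, were read beside the genes above. Of 20 end joining genes, all tested, 11 lay above and 9 below 0 on the log2 scale, with a median log2 fold change of 0.043. In edgeR 1 of the 20 was lower at an unadjusted p under 0.05, 5% against 2.07% of all genes, and in DESeq2 none was at that level. It was *Polq*, the polymerase of microhomology-mediated joining. *Polq* was at 14.0, 14.3 and 18.6 CPM in wild type and at 6.02, 8.52, 14.2 and 11.0 CPM in knockout mice, with overlap through knockout replicate 3 (log2 fold change −0.65, standard error 0.31, edgeR adjusted p = 0.999). *Dclre1c*, which encodes the Artemis nuclease, was at 16.2, 11.8 and 16.5 CPM in wild type and at 18.9, 26.0, 16.8 and 19.2 CPM in knockout mice, without overlap (log2 fold change 0.44, standard error 0.25, edgeR adjusted p = 0.999).

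Of 15 Fanconi genes 13 were tested, with a median log2 fold change of 0.058 and none at an unadjusted p under 0.05 in edgeR or DESeq2. *Fancl* (−0.54) and *Fancb* (−0.25) were lowest and *Faap24* (0.44) and *Fancd2* (0.41) highest. Omitting single mice moved *Fancl* to −0.29 (knockout replicate 4) or −0.91 (knockout replicate 1), *Fancb* to −0.0053 (wild type replicate 1) or −0.50 (knockout replicate 1), and *Faap24* to 0.22 (knockout replicate 2) or 0.70 (wild type replicate 1). *Fancd2* stayed between 0.36 and 0.51. *Fancd2* was at 11.2, 13.4 and 10.9 CPM in wild type and at 16.9, 16.2, 13.6 and 16.2 CPM in knockout mice, each knockout mouse above each wild type mouse (edgeR adjusted p = 0.999). Over all 112 repair genes tested, 5 had every knockout mouse above every wild type mouse and 2 had every knockout mouse below, against 2.37% and 2.79% of all genes, and *Msh3* is 1 of the 5. The 2 below are *Rad51c* and *Abraxas1*. *Abraxas1* was at 12.7, 12.9 and 13.3 CPM in wild type and at 7.38, 9.77, 10.5 and 9.72 CPM in knockout mice. Its log2 fold change was −0.47 (edgeR adjusted p = 0.999).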
